A study of Rattus norvegicus with 31 samples.

Results

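Scaffold proteins of the membrane-associated guanylate kinase (MAGUK) family and their Lin7 partners were followed at the mRNA level in the CA3 region of the hippocampus of aged rats. The genes were Dlg1, Dlg2, Dlg3 and Dlg4, Cask, Mpp3, and Lin7a, Lin7b and Lin7c. Every probeset that the array annotation assigned to 1 of these symbols alone was taken, which gave 15 of the 16204 probesets in the table and covered 8 of the 9 genes. A probeset is a group of short probes for 1 transcript, and its brightness rises with the amount of that mRNA. Dlg3 had 4 probesets, Mpp3 had 3, Dlg1 and Dlg4 had 2 each, and Cask, Dlg2, Lin7b and Lin7c had 1 each. No probeset of the table was assigned to Lin7a, so Lin7a was not analysed here. The table holds only part of the probesets on the array, so further probesets of these genes may exist outside it. All 15 passed the study's filter, a mean level of at least 4 in log2 units. Probesets of a gene are numbered from the brightest.

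The animals were male Long-Evans rats aged about 24 months. Each had been scored for spatial memory in the water maze, and the score alone divides aged unimpaired (AU) from aged impaired (AI) rats. All of them then swam 8 trials to a visible platform. It was either fixed, with room cues (spatial, S), or moved, with no cues (non-spatial, NS). Every rat later swam a probe trial with the platform taken away, and CA3 was dissected right after it, about 2 hours after task onset. With 1 array per rat, there were 8 rats in each of AU-S, AU-NS and AI-S and 7 rats in AI-NS, and AU-act (16 rats) and AI-act (15 rats) pool the tasks. The phenotypes arise within 1 outbred population with no transgene or drug, and rats taken from the home cage and young rats were not analysed here.

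The MAGUK proteins followed here carry at least 1 PDZ domain, an SH3 domain and a guanylate kinase-like domain that binds other proteins instead of acting as an enzyme. In this way 1 molecule can hold receptors, adhesion proteins and signalling enzymes together under a membrane. The Dlg proteins sit in the postsynaptic density of excitatory synapses, where they anchor NMDA receptors and the auxiliary subunits of AMPA receptors. Cask binds neurexins on the presynaptic side, and Cask and Mpp3 both bind the small Lin7 proteins, whose own PDZ domain extends the complex to further membrane proteins. In the hippocampus these scaffolds are known for their part in receptor trafficking and synaptic plasticity.

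The table held gcRMA levels on the log2 scale. The median level of an array was 8.97 to 9.14, and each array correlated on average at 0.981 to 0.989 with the rest. CA3 markers were represented by Grik4 and Bok, with a mean level of 10.36 in AU-act and 10.30 in AI-act rats, and the dentate granule markers Prox1 and Calb1 were also measured, at 9.58 ± 0.20 (SD, n = 16) and 9.72 ± 0.43 (SD, n = 15). RNA length was read from array control probesets placed at the 3′ end and at the 5′ end of the same mRNA, for beta-actin and Gapdh. The mean 3′ level minus 5′ level, here called the control difference, grows as RNA gets shorter. It averaged 1.45 ± 0.10 (SD, n = 16) in AU-act and 1.59 ± 0.13 (SD, n = 15) in AI-act rats (two-sided permutation test, p = 0.00066). AI-NS replicate 8 had the highest control difference, 1.92. In dissected tissue fewer cells of a type and less RNA per cell cannot be told apart.

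Promoter sequences were available from RefSeq (build GRCr8) for 7 of the 9 genes. Those of Dlg1, Dlg2 and Lin7c are shown because each gene had a probeset called higher in AU-act rats. In Dlg1 this was the dimmer probeset, and the brightest differed by 0.04 (adjusted p = 0.706 from limma). Each holds 250 bases before and 50 bases after an annotated start, 5′ to 3′ on the strand of the gene. Capitals mark GGGCGG (the GC box) and CACGTG (the E-box) on either strand.

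Dlg1 (chr11:82607748-82608047, minus strand): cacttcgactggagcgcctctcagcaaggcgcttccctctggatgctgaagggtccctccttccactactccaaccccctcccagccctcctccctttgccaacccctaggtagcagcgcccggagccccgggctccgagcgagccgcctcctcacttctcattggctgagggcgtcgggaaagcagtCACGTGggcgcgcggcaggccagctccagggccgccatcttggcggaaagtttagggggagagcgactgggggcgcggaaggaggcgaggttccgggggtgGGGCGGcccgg
Dlg2 (chr1:154539421-154539720, plus strand): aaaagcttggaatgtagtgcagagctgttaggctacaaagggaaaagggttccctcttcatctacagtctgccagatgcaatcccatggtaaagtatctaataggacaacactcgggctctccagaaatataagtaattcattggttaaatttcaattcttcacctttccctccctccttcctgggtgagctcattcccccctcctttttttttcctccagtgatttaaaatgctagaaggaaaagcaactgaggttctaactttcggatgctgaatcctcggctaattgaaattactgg
Lin7c (chr3:116861134-116861433, plus strand): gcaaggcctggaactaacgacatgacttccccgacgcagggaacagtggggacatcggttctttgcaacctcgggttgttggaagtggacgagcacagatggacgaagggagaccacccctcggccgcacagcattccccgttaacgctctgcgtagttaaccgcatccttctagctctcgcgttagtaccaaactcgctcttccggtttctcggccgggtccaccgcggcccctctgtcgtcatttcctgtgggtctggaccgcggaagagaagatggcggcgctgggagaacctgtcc

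The 3 windows differed in base composition, with 69% G and C in Dlg1, 60% in Lin7c and 42.3% in Dlg2, against a median of 51.7% over all 33469 promoters of this length. The Dlg2 and Lin7c windows lie inside the annotated genes, and each stands for 1 start. The GC box was found in 4 of the 7 member promoters and in 33.1% of all promoters, and of the 3 shown here Dlg1 alone held it. The E-box was found in Dlg1 alone of the 7 and in 6.42% of all promoters. The cAMP response element TGACGTCA (1.83% of all promoters) and the Egr site GCGTGGGCG (0.544%) were in none of the 7 windows on either strand. These matches describe letters in a window and were not tested against expression.

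AU-act and AI-act rats were compared first, to ask whether scaffold mRNA levels followed memory status when both tasks were pooled. Of the 15 probesets, limma called 8 higher and 0 lower in AU-act rats at an adjusted p under 0.05, with the adjustment over all probesets. Of all 16204 probesets 5.00% were called higher. The called probesets belong to 5 genes, the scaffolds Mpp3, Dlg3, Dlg1 and Dlg2 and the adaptor Lin7c. Over the 15 probesets the median AU-act minus AI-act difference was 0.23 on the log2 scale and 13 were above 0, while over all probesets the median was 0.01 and 53.3% were above 0. The genes were chosen with earlier results of these data known, so these shares beside all probesets are a description and no test of the group. No called probeset separated the rats completely, since the ranges of AU-act and AI-act overlapped for each of the 15. Overlap was not counted over all probesets, so this only describes the members.

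**Figure D1:**
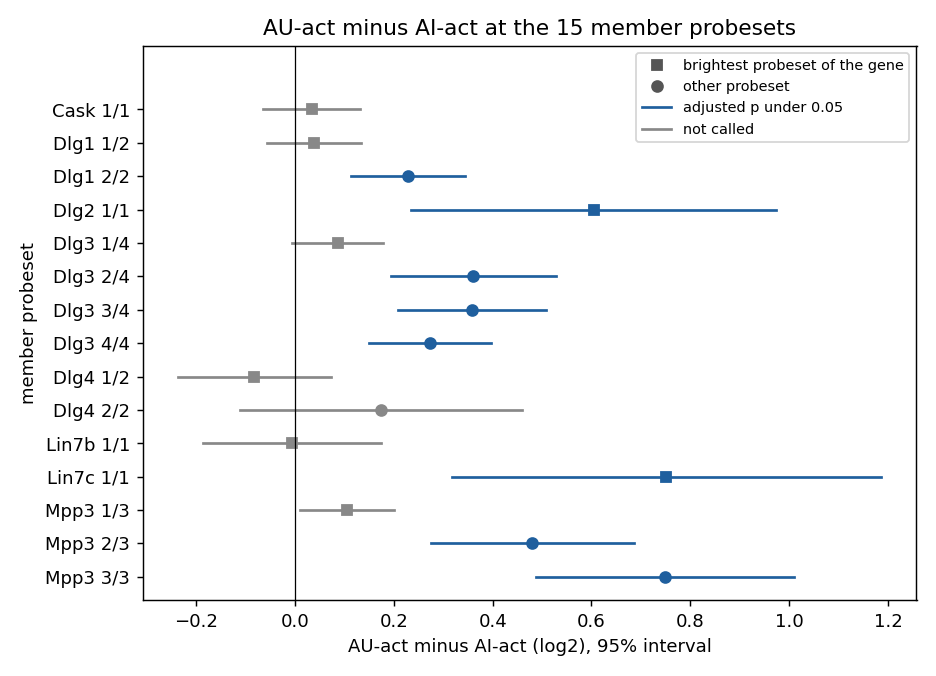
AU-act minus AI-act difference in log2 level (horizontal axis) with its 95% interval from limma, for the 15 member probesets (vertical axis, numbered from the brightest of each gene). Squares are the brightest probeset of a gene, circles are other probesets, and blue marks an adjusted p under 0.05, which 8 of the 15 reached.

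Mpp3, a scaffold whose protein binds Lin7, had the smallest adjusted p of the group at its dimmest probeset. At Mpp3 probeset 3 the level was 8.49 in the lowest AU-act rat, 8.94 at the median and 9.50 in the highest, against 7.44, 8.31 and 9.003 in AI-act rats. All 16 AU-act rats lay above the AI-act mean and 12 of 15 AI-act rats lay below every AU-act rat, so the overlap came from the 3 highest AI-act rats. The difference was 0.75 (SE 0.13, adjusted p = 0.00158 from limma), which is 1.68-fold. Probeset 2 was higher by 0.48 (SE 0.10, adjusted p = 0.00401), with a range of 8.63 to 9.59 and a median of 9.22 in AU-act and a range of 8.04 to 9.43 and a median of 8.74 in AI-act rats. Here 15 of 16 AU-act rats lay above the AI-act mean. The brightest Mpp3 probeset, with a mean level of 11.37 ± 0.15 (SD, n = 16) in AU-act and 11.27 ± 0.09 (SD, n = 15) in AI-act rats, differed by 0.11 (SE 0.05, adjusted p = 0.198) and did not pass.

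Dlg3, a postsynaptic scaffold that binds NMDA receptor subunits, followed the same order. Its 3 dimmer probesets were all called and its brightest was not. At Dlg3 probeset 3 the lowest, median and highest AU-act levels were 8.03, 8.23 and 8.51 and the AI-act levels 7.36, 7.87 and 8.37. Every AU-act rat was above the AI-act mean, and 10 of 15 AI-act rats were below every AU-act rat. The difference was 0.36 (SE 0.07, adjusted p = 0.00333 from limma). Probeset 2, of a type whose probes can match several transcripts, differed by 0.36 (SE 0.08, adjusted p = 0.00683), from 8.55 to 9.29 with a median of 8.98 in AU-act and from 8.15 to 9.08 with a median of 8.62 in AI-act rats. Probeset 4 differed by 0.27 (SE 0.06, adjusted p = 0.00607), with AU-act levels from 7.72 to 8.25 (median 7.94) and AI-act levels from 7.33 to 7.99 (median 7.70). At the brightest Dlg3 probeset the means were 11.25 ± 0.12 (SD, n = 16) and 11.16 ± 0.13 (SD, n = 15), and the difference of 0.09 (SE 0.05, adjusted p = 0.293) did not pass.

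Dlg1, a scaffold of AMPA receptors and of cell junctions outside neurons, was called at its dimmer probeset. AU-act levels there ran from 9.28 to 9.75 with a median of 9.50 and AI-act levels from 8.94 to 9.57 with a median of 9.28. The difference was 0.23 (SE 0.06, adjusted p = 0.0130 from limma), and 15 of 16 AU-act rats were above the AI-act mean. The brightest Dlg1 probeset differed by 0.04 (SE 0.05, adjusted p = 0.706), with levels of 10.97 ± 0.12 (SD, n = 16) and 10.93 ± 0.14 (SD, n = 15).

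Dlg2, which shares the postsynaptic density with Dlg4, had 1 probeset with a wide spread. Its level ran from 6.40 to 8.15 with a median of 7.01 in AU-act and from 5.62 to 7.47 with a median of 6.51 in AI-act rats. The AU-act mean was higher by 0.60 (SE 0.18, adjusted p = 0.0434 from limma), and 15 of 16 AU-act rats were above the AI-act mean. The 95% interval of the fold change reached from 1.18 to 1.96. The call was lost without any 1 of 19 of the 31 arrays, with adjusted p between 0.0150 and 0.0762 over all arrays left out in turn.

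Lin7c, the adaptor that joins Cask and Mpp3 to further membrane proteins, had the largest difference of the group and the dimmest probeset. Its level was 5.60 in the lowest AU-act rat, 6.06 at the median and 7.75 in the highest, and 4.24, 5.60 and 6.40 in AI-act rats. The highest AU-act value belonged to AU-S replicate 1, and the other AU-S rats lay at or below 6.08. The mean was higher by 0.75 in AU-act rats (SE 0.21, adjusted p = 0.0321 from limma), all 16 of them were above the AI-act mean, and the difference was 0.65 (adjusted p = 0.0476) without AU-S replicate 1. The call was lost without any 1 of 7 other arrays, with adjusted p of at most 0.0599.

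**Figure D2:**
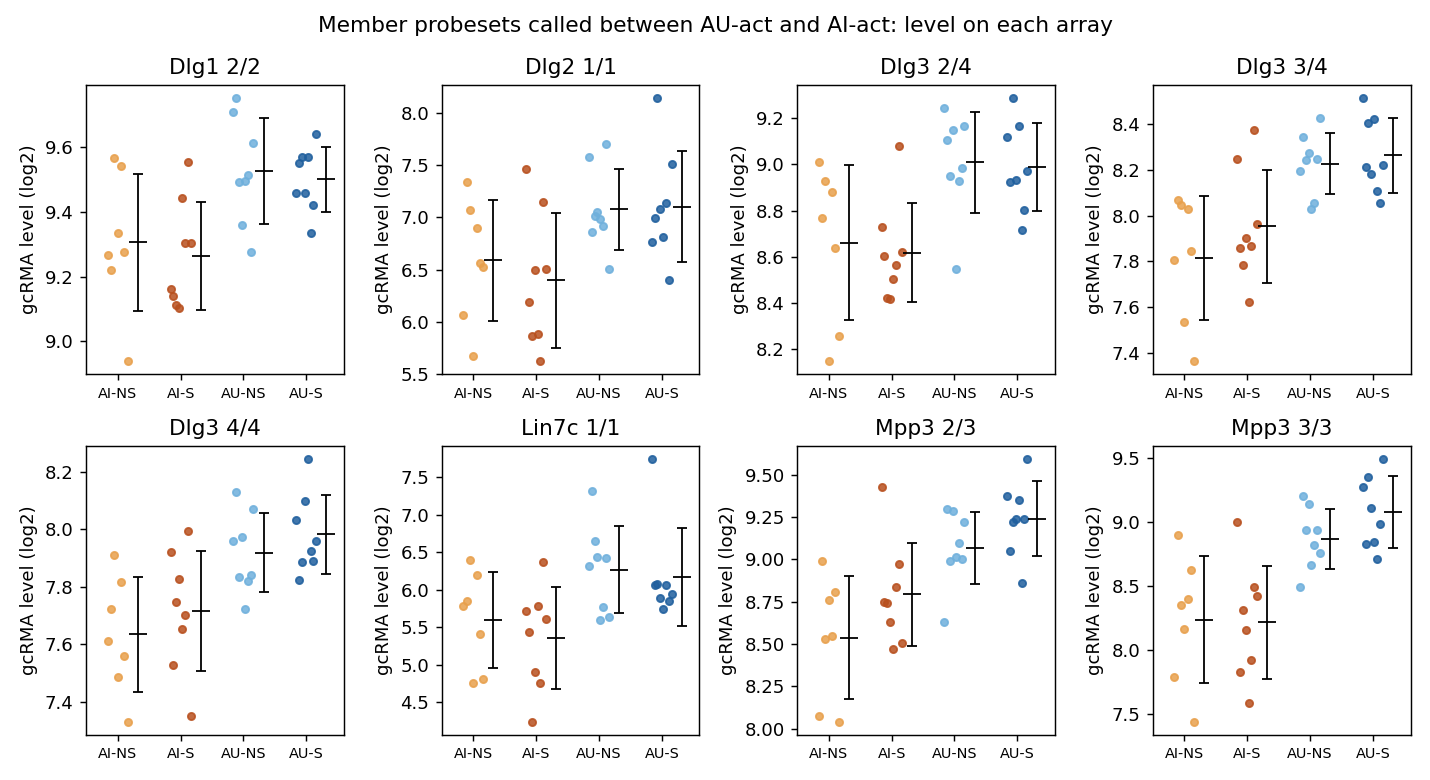
gcRMA level in log2 units (vertical axes) on each array for the 8 called probesets, by phenotype and task. Points are rats and bars the group mean and SD. Lin7c in AU-S has 1 rat at 7.75 above the others, and Mpp3 probeset 3 shows the 2 AU groups above most AI rats.

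The remaining members gave no call in either direction. Dlg4, the main scaffold of the postsynaptic density, measured 10.21 ± 0.21 (SD, n = 16) in AU-act and 10.30 ± 0.22 (SD, n = 15) in AI-act rats at its brightest probeset, a difference of -0.08 with a 95% interval from -0.24 to 0.07 (adjusted p = 0.605 from limma). Its second probeset gave 0.17 with an interval from -0.11 to 0.46 (adjusted p = 0.535). Cask measured 9.72 ± 0.14 (SD, n = 16) and 9.69 ± 0.13 (SD, n = 15), a difference of 0.03 with an interval from -0.06 to 0.13 (adjusted p = 0.758 from limma). Lin7b measured 9.31 ± 0.19 (SD, n = 16) and 9.32 ± 0.31 (SD, n = 15), a difference of -0.01 with an interval from -0.19 to 0.17 (adjusted p = 0.981 from limma). Among these, the dimmer Dlg4 probeset was the one whose interval reached above 0.23, the difference at Dlg1 probeset 2.

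With the brightest probeset standing for each gene, 2 of the 8 genes were called higher, Dlg2 and Lin7c, and of 9037 genes 2.05% were called higher on that rule. Both have a single probeset. In Mpp3, Dlg3 and Dlg1 the probeset that was called was not the brightest one, so the 2 kinds of probeset were compared directly. The level of each other probeset minus the brightest probeset of the same gene was formed on every array and tested in 1 limma fit over 3205 such pairs. Of the 7 member pairs 6 were higher in AU-act rats, the exception being Dlg4. Over all pairs 20.8% were called higher.

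For Mpp3 probeset 3 this within-gene difference was -2.40 ± 0.21 (SD, n = 16) in AU-act and -3.04 ± 0.46 (SD, n = 15) in AI-act rats, an AU minus AI value of 0.64 (SE 0.12, adjusted p = 0.00141 from limma). For Dlg3 probeset 3 it was -3.00 ± 0.14 (SD, n = 16) and -3.27 ± 0.21 (SD, n = 15), an AU minus AI value of 0.27 (SE 0.06, adjusted p = 0.00369). The phenotype difference at these probesets thus exceeded that at the brightest probeset of the same gene by more than the error of the test. The other called pairs had values of 0.37 for Mpp3 probeset 2, 0.27 and 0.19 for Dlg3 probesets 2 and 4 and 0.19 for Dlg1 probeset 2, with adjusted p from 0.00891 to 0.0161. The Dlg4 pair had 0.26 (SE 0.19, adjusted p = 0.333). All 6 calls held when any 1 array was left out, and all 6 were lost with the control difference as a covariate, where Mpp3 probeset 3 had 0.38 (adjusted p = 0.209), Mpp3 probeset 2 had 0.24 (adjusted p = 0.345), and the Dlg3 and Dlg1 pairs had values from 0.10 to 0.13 (adjusted p from 0.361 to 0.483).

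**Figure D3:**
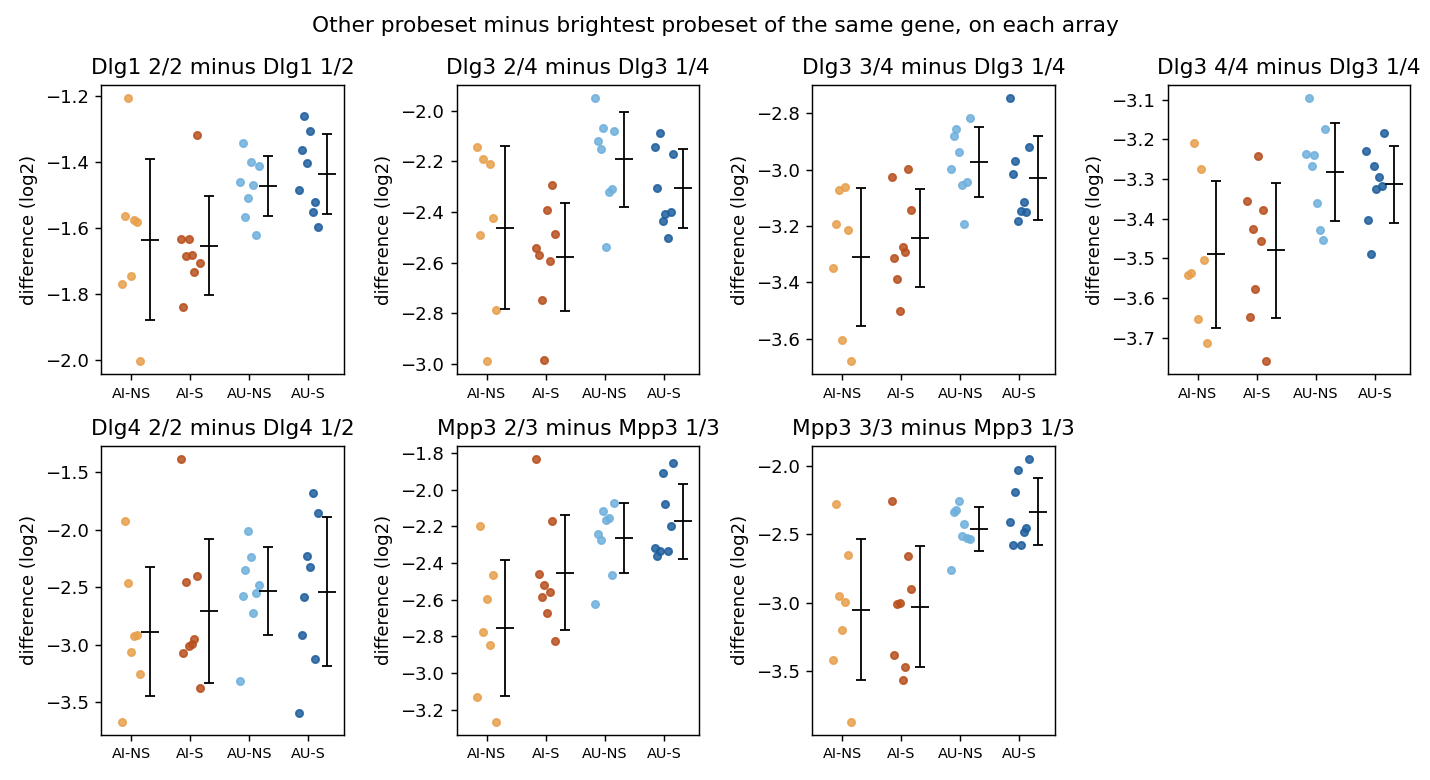
Level of a dimmer probeset minus the level of the brightest probeset of the same gene, in log2 units (vertical axes), on each array for the 7 member pairs in the 4 groups. Points are rats and bars the mean and SD. The means of the AU groups lie above those of the AI groups for the 6 Mpp3, Dlg3 and Dlg1 pairs, and the Dlg4 pair spreads widely in every group.

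Calls were also counted by the kind of sequence a probeset was designed from. Of the 5 member probesets designed from expressed sequence tags 1 was called, of the 7 from RefSeq transcripts 4 were called, and the 2 from other GenBank records were both called, as was the 1 with no record given. Over the 12242 probesets with a single gene the share called higher was 5.02% for expressed sequence tags, 8.62% for RefSeq transcripts, 14.1% for other GenBank records and 4.37% where no record was given. The brightest probesets of Mpp3, Dlg3, Dlg1 and Dlg4 were all designed from expressed sequence tags.

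The control difference differed between the phenotypes, and its relation to member levels was read within each phenotype. These relations were computed for the member probesets only, so no share over all probesets stands beside the counts. In AI-act rats Pearson's r between level and control difference was below 0 for all 8 called probesets, between -0.68 and -0.43 over 15 rats, and 5 of the 8 passed an adjusted p of 0.05 by permutation over the 30 relations computed. By Spearman's rho 5 of the 8 also passed. For Lin7c r was -0.68 (permutation test, adjusted p = 0.0450) and Spearman's rho -0.80 (permutation test, adjusted p = 0.00900) over 15 AI-act rats, and r was -0.77 without the 2 rats farthest from the median control difference. For Mpp3 probeset 3 r was -0.64 (permutation test, adjusted p = 0.0450) and rho -0.66 (permutation test, adjusted p = 0.0343), and r was -0.58 without those 2 rats. For Dlg1 probeset 2 r went from -0.64 to -0.29 without them and rho had an adjusted p of 0.138 by permutation, so that relation rests on those 2 rats. For Dlg2 r went the other way, from -0.43 (permutation test, adjusted p = 0.240) to -0.90 without them, with rho at -0.72 (permutation test, adjusted p = 0.0270).

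In AU-act rats none of the 15 probesets passed by either measure, and r over the called probesets ran from -0.51 for Lin7c to 0.25 for Dlg3 probeset 4. Outside the called probesets, Cask was lower in AI-act rats with a larger control difference (r = -0.82 and rho = -0.81, permutation tests, adjusted p = 0.0123 and 0.00900), while its AU-act minus AI-act difference did not pass. The dimmer Dlg4 probeset passed by rho (-0.68, permutation test, adjusted p = 0.0319) and not by r (-0.58, permutation test, adjusted p = 0.0832). The brightest Dlg3 and Mpp3 probesets had r of -0.02 and 0.10 in AI-act rats.

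With the control difference as a covariate, 0 of the 15 probesets were called, and 1 of all 16204 probesets was called higher. The values for the called probesets stayed above 0. Mpp3 probeset 3 went from 0.75 to 0.49 (adjusted p = 0.189 from limma), Lin7c from 0.75 to 0.27 (adjusted p = 0.645), Dlg2 from 0.60 to 0.41 (adjusted p = 0.448) and Dlg3 probeset 4 from 0.27 to 0.23 (adjusted p = 0.229). Phenotype and control difference vary together, so this fit cannot fully tell them apart. The part of RNA length in these values was not tested.

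**Figure D4:**
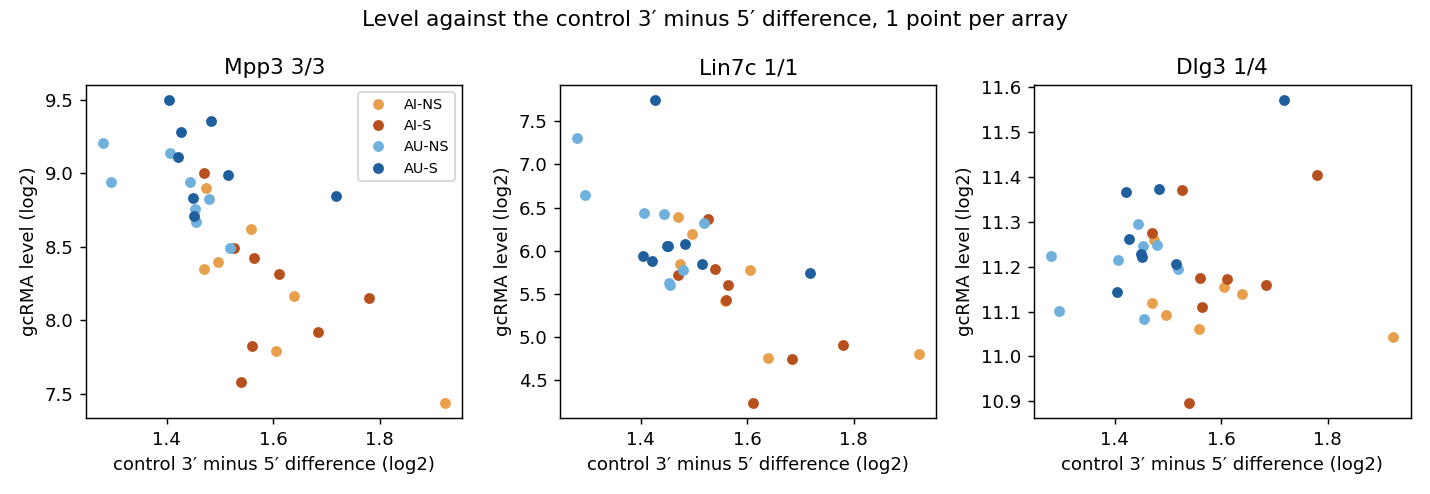
gcRMA level in log2 units (vertical axes) against the control difference, the 3′ level minus the 5′ level of the control mRNAs in log2 units (horizontal axes), 1 point per rat, for Mpp3 probeset 3, Lin7c and the brightest Dlg3 probeset. AI rats extend to higher control differences, up to 1.92, where the levels of Mpp3 probeset 3 and Lin7c are low, while the brightest Dlg3 probeset has no such slope in AI rats.

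Spatial and non-spatial training were then taken apart, to ask whether the phenotype difference was tied to a task. After spatial training Mpp3 probeset 3 was the only one of the 15 that passed an adjusted p of 0.1, against 0.389% of all probesets. Its mean was 9.08 ± 0.28 (SD, n = 8) in AU-S and 8.21 ± 0.45 (SD, n = 8) in AI-S rats, a difference of 0.86 (SE 0.17, adjusted p = 0.0744 from limma). It ran from 8.71 to 9.50 in AU-S and from 7.58 to 9.003 in AI-S rats, and 7 of 8 AI-S rats lay below every AU-S rat. No probeset of the group was called after spatial training with median centring, quantile normalization, the control difference or the dentate and CA1 scores, and the count moved when any 1 of 13 of the 16 arrays was left out, to between 0 and 6. At an unadjusted p under 0.05, 9 of the 15 probesets were higher after spatial training, against 8.42% of all probesets.

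After non-spatial training none of the 15 passed (0.00% of all probesets did), the smallest adjusted p being 0.176 at Dlg3 probeset 3. At an unadjusted p under 0.05, 8 of the 15 were higher, against 8.55% of all probesets. The AU minus AI values of the called members were above 0 in both tasks. Mpp3 probeset 3 had 0.86 after S and 0.63 after NS training, Lin7c had 0.82 and 0.67, Dlg2 had 0.71 and 0.49, and Dlg3 probeset 3 had 0.31 and 0.41. Lin7b had -0.12 after S and 0.11 after NS training, neither passing the test.

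The phenotype by task interaction tests the difference between the tasks itself. None of the 15 passed an adjusted p of 0.1 (0.00% of all probesets did), and none had an unadjusted p under 0.05, against 2.44% of all probesets. For Mpp3 probeset 3 the interaction was 0.23 with a 95% interval from -0.30 to 0.76, and for Lin7c it was 0.15 with an interval from -0.74 to 1.04. Both intervals hold a task effect as large as the pooled phenotype difference of that probeset. In simulated data with these numbers of rats the interaction fit recovered 77.5% of probesets changed by 1.5-fold and 5.0% of those changed by 1.2-fold. These rates are averages over 200 probesets drawn at random, each simulated with its own spread, and were not measured for single members. The SE of the interaction was 0.44 for Lin7c, 0.37 for Dlg2 and 0.26 for Mpp3 probeset 3 on the log2 scale.

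**Figure D5:**
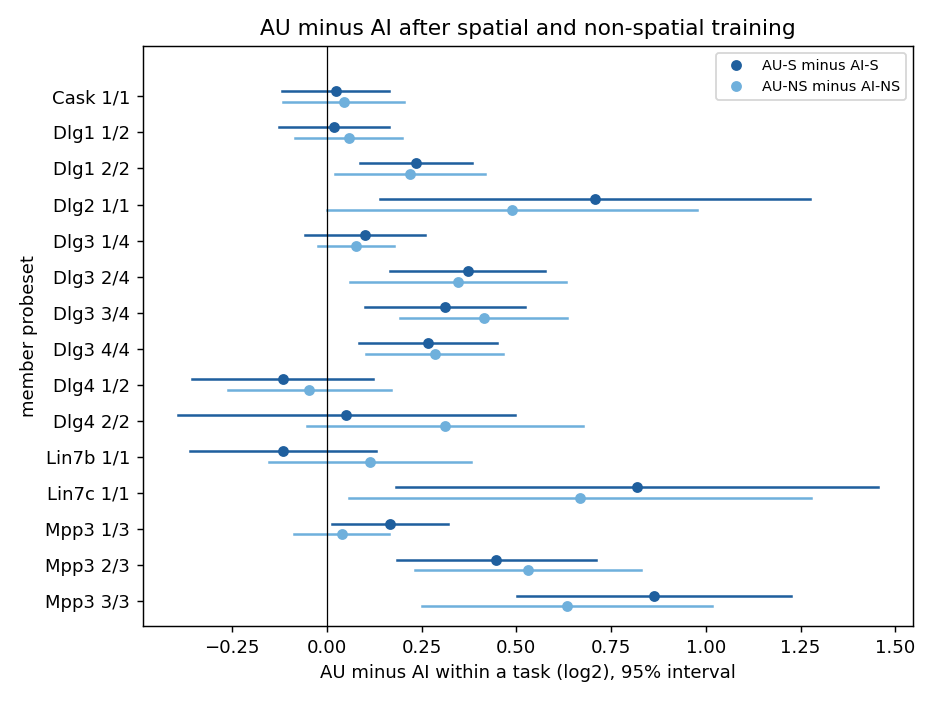
AU minus AI difference in log2 level with its 95% interval (horizontal axis) for the 15 member probesets (vertical axis), after spatial (dark blue, 8 against 8 rats) and non-spatial training (light blue, 8 against 7 rats). The intervals of the 2 tasks overlap for each probeset.

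Training itself was compared within each phenotype. Between AU-S and AU-NS rats none of the 15 probesets passed an adjusted p of 0.1 (0.00% of all probesets did), and none had an unadjusted p under 0.05, against 8.12% of all probesets. The differences lay between -0.10 for Lin7c and 0.21 for Mpp3 probeset 3. Between AI-S and AI-NS rats again none passed at either level (0.00% and 4.09% of all probesets), with differences from -0.25 for Lin7c to 0.26 for Mpp3 probeset 2. These 2 comparisons and the 2 phenotype comparisons within a task share rats.

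The called probesets correlated with each other from rat to rat. After removing the 4 group means, the 28 pairs of called probesets had Pearson correlations from 0.10 to 0.81 with a median of 0.45 over 31 arrays, and the 24 of these pairs that joined different genes had a median of 0.41. The other 77 pairs ran from -0.55 to 0.66 with a median of 0.13, the highest being the uncalled Lin7b with Mpp3 probeset 3. The highest value between different genes was 0.68, for Dlg3 probeset 3 and Mpp3 probeset 3. All points share their arrays and their normalization, and the called set was chosen by its phenotype difference, so these values are a description.

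Among genes outside the group, those most like Mpp3 probeset 3 over the 31 arrays after removing group means were Vti1a (r = 0.84), Cdk5r1 (r = 0.84), an activator of the neuronal kinase Cdk5, and Zfp706 (r = 0.83). Those most like Lin7c were Epm2aip1 (r = 0.86), Hycc2 (r = 0.86) and Cyria (r = 0.86). Dlg3 probeset 3 was closest to Gigyf2 (r = 0.86), Abr (r = 0.86) and Tnks2 (r = 0.83), Dlg1 probeset 2 to Tmem47 (r = 0.83), Mmut (r = 0.83) and Exoc5 (r = 0.83), and Dlg2 to Nacc1 (r = 0.82), Ptpa (r = 0.74) and Map1b (r = 0.73), a microtubule-associated protein.

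The proteins that these scaffolds bind were read at the brightest probeset of each gene. Of 8 measured genes of other MAGUK proteins none was called and none had an unadjusted p under 0.05, with a median AU-act minus AI-act difference of -0.003. Of 22 measured partners of Cask and Lin7, 1 was called higher and 0 lower, and their median was 0.07. It was Epb41l3, a protein of the 4.1 family that links membrane proteins to spectrin and actin, higher by 0.15 (SE 0.04, adjusted p = 0.0322 from limma) with 15 of 16 AU-act rats above the AI-act mean. The 2 brightest partners not called at that probeset were Ctnnb1, the beta-catenin of cell junctions, at 0.03 (SE 0.03), and the synaptic adhesion gene Cadm1 at 0.002 (SE 0.06). Over all probesets of these partners 4 of 36 were called higher and 0 lower, beside 5.00% of all probesets called higher. Besides both probesets of Epb41l3 these were a dimmer probeset of Ctnnb1 (0.40, adjusted p = 0.0357 from limma) and one of the adhesion gene Cdh2 (0.20, adjusted p = 0.0404), named after their values were seen.

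Of 35 measured partners of the Dlg proteins at excitatory synapses, 2 were called higher and 0 lower, and the median was 0.03. Lgi1, a secreted protein that bridges the synaptic cleft to receptor complexes anchored by Dlg4, was higher by 0.19 on average (SE 0.05, adjusted p = 0.00866 from limma). All 16 AU-act rats lay above its AI-act mean. Nlgn1, the postsynaptic adhesion protein whose tail binds the Dlg scaffolds, was higher by 0.14 (SE 0.04, adjusted p = 0.0280). The 2 brightest not called at that probeset were Camk2b, a subunit of the calcium-calmodulin kinase of the postsynaptic density, at 0.03 (SE 0.04), and the scaffold Shank1 at -0.01 (SE 0.06). Over all probesets of the Dlg partners 4 of 58 were called higher and 0 lower, beside 5.00% of all probesets called higher. The others were dimmer probesets of Kalrn (0.56, adjusted p = 0.0421 from limma) and Dlgap1 (0.27, adjusted p = 0.0293), also named after their values were seen. Dlgap1 binds the guanylate kinase-like domain of the Dlg proteins. Its brightest probeset lay the other way, at -0.16 (SE 0.07, adjusted p = 0.206 from limma), with 2 of 16 AU-act rats above the AI-act mean. The remaining Dlgap1 probesets had -0.003 and 0.06, and the brightest Kalrn probeset had 0.03. At the brightest probeset the share called in the 2 partner lists was 1 of 22 and 2 of 35, beside the 2.05% of all genes.

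Marker lists of other cells were read in the same way. Of the 2 CA3, 2 dentate granule, 5 CA1, 6 astrocyte, 5 oligodendrocyte, 3 microglia and 3 endothelial or choroid plexus markers that were measured, none was called at its brightest probeset in the pooled comparison. Of 6 interneuron markers Gad2, an enzyme of GABA synthesis, was called higher, by 0.48 (adjusted p = 0.0391 from limma). Over all probesets of these markers, 2 of 7 interneuron, 2 of 11 astrocyte, 2 of 10 oligodendrocyte and 1 of 3 CA3 probesets were called higher and none was called lower. No probeset of the dentate, CA1, microglia or endothelial lists was called. Beside these counts, 5.00% of all probesets were called higher, and 2.05% at the brightest probeset of each gene. The calls at dimmer probesets, named after their values were seen, were Gad1 (0.55, adjusted p = 0.00255), the astrocyte genes Gja1 (0.69, adjusted p = 0.0293) and Slc1a3 (0.20, adjusted p = 0.0190), the myelin genes Mobp (0.39, adjusted p = 0.00313) and Mbp (0.16, adjusted p = 0.0256), and Bok (0.23, adjusted p = 0.0353), all from limma. Their part in the member values was not tested. The mean dentate granule level was 9.50 ± 0.23 (SD, n = 8) in AU-S rats and 9.95 ± 0.35 (SD, n = 8) in AI-S rats, and after non-spatial training the order was the opposite, 9.66 ± 0.13 (SD, n = 8) in AU-NS and 9.46 ± 0.37 (SD, n = 7) in AI-NS rats. Both dentate markers had an unadjusted p under 0.05 for the interaction and neither was called. With dentate and CA1 scores as covariates the calls of Dlg2 (adjusted p = 0.0704) and Lin7c (adjusted p = 0.0558) were lost while their values stayed at 0.58 and 0.71. The part of dissection in the member values was not tested.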

How the data were processed

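RNA from microdissected CA3 was hybridised to Affymetrix rat arrays, 1 per rat. The deposited values are log2 levels that the authors made with gcRMA (version not given in the sources used here). The authors left out 1 AI-NS array. All 31 deposited columns matched a sample label. Probesets were named from GEO's platform annotation, which can be old. Of 16204 probesets 12242 have 1 gene, 293 several and 3669 none. The study's intensity limit of 4 on the log2 mean removed none, since the smallest mean was 5.0002.

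Groups came from the sample labels. The study compared groups with SAM. Here limma 3.58.1 in R 4.3.3 (lmFit and eBayes, two-sided) was the main test, with Benjamini-Hochberg adjustment over all probesets, and SAM (100 permutations) an alternative. Called means an adjusted p under 0.05 for AU-act against AI-act and for within-gene differences, and under 0.1 otherwise. In a test on simulated data with 200 of 16204 probesets changed, the AU-act against AI-act fit recovered 94% at 1.5-fold and 61.5% at 1.2-fold. Permutation tests (100000 resamples, exact within a task) used scipy 1.17.1, and figures matplotlib 3.10.9.

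The members and lists were chosen with earlier results of these data known. Each called probeset is named with its values, uncalled members by their brightest probeset, and partner lists by their called genes and the 2 brightest uncalled genes. The 3 genes most like a called member are those with the highest r. Array levels carry no read depth, and precision is set by how many rats there are. Alternatives were other intensity limits, priors, scalings, array weights, a replicate block, covariates, a 4-group fit, SAM, means over probesets, and each array left out.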

Additional observations from a re-analysis of the deposited data

Results flagged for a closer look

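Within the 4 groups of 7 or 8 rats, the highest or lowest rat of 60 sets of values (15 probesets in 4 groups) was compared with its nearest neighbour by Dixon's gap over the range, and in 8 sets a rat stood apart (7 different rats), where chance gives about 1 set in 20. Lin7c had the widest gap, with AU-S replicate 1 at 7.75 and the next AU-S rat at 6.08, and its AU-act minus AI-act difference was 0.65 (adjusted p = 0.0476 from limma) without that rat. AI-S replicate 7 was high at Dlg3 probeset 2 (9.08, next 8.73) and AU-NS replicate 5 was low there (8.55, next 8.93), and leaving either out gave a difference of 0.39. AU-NS replicate 1 was low at Mpp3 probeset 2 (8.63, next 8.99), where the difference was 0.51 without it, and low at Lin7b (8.83, next 9.26). Among probesets with no call, AI-NS replicate 8 was low at Cask (9.39, next 9.67), AU-S replicate 8 was high at Dlg1 probeset 1 (11.24, next 10.94), and AI-NS replicate 1 was high at Dlg4 probeset 1 (10.70, next 10.27). AI-NS replicate 8 also had the highest control difference (3′ minus 5′ level of the control mRNAs), 1.92. Among called probesets it was the lowest AI-act rat at Dlg1 probeset 2 (8.94) and at Dlg3 probesets 3 (7.36) and 4 (7.33). The same held at Mpp3 probesets 2 (8.04) and 3 (7.44). At Dlg2, Dlg3 probeset 2 and Lin7c another AI-act rat was the lowest.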

How the results depend on the processing

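The 8 pooled calls numbered 0 with the control difference as a covariate, as did the 6 within-gene calls, and lay between 6 and 8 when any 1 array was left out (within-gene calls 6 and 6). With the control covariate Cask was -0.0337 and the dimmer Dlg4 probeset -0.0594, and Lin7b was 0.0272 with dentate and CA1 covariates. Calls at the brightest probeset went from 2 to 1 with an intensity limit of 6 (Lin7c then lies under the limit), to 0 with the control covariate, to 0 with the dentate and CA1 covariates, and to 4 with the mean of all probesets of a gene (Dlg2, Dlg3, Lin7c and Mpp3). Leaving out 1 array gave 0 to 2. Dlg2 lost its call without AI-NS replicate 1, 5, 7 or 8, AI-S replicate 2, 3, 4, 5, 6 or 8, AU-NS replicate 1, 2, 3, 4 or 7, or AU-S replicate 3, 4, 6 or 8 (0.53 to 0.67 over all arrays), and Lin7c without AI-NS replicate 5 or 8, AI-S replicate 3, 4 or 6, or AU-NS replicate 2 or 3 (0.65 to 0.82 over all arrays). Lin7b lay between -0.0434 and 0.0350, above 0 without any 1 of 10 arrays. The single call after spatial training became 0 with median centring, with quantile normalization, with the control covariate and with the dentate and CA1 covariates, 6 with array weights and 2 with SAM, and 0 to 6 without 1 array, keeping 1 without AI-S replicate 5 or AU-S replicate 6 or 7. After non-spatial training the count became 2 in the 4-group fit and 3 without AI-NS replicate 3 (0 to 3). Replicate numbers did not pair rats across groups (mean correlation of same-numbered deviations -0.0831, 7 of 45 pairs over 0.1, and 0 of 31 arrays closest to their own number). With the replicate number as a block, 6 pooled probesets and 0 genes at the brightest probeset were called, since Dlg2 (0.62, adjusted p = 0.0575) and Lin7c (0.73, adjusted p = 0.0506) were lost. The block changed no other call. The causes were not tested. The smallest change that these numbers of rats can show was not measured below 1.2-fold.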
